A study of Mus musculus with 7 samples.

Results

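The MS4A family genes Ms4a4a, Ms4a4b, Ms4a4c, Ms4a6b, Ms4a6c, Ms4a6d and Ms4a7 were followed in retinal microglia (rMG) of Irf8-deficient mice with and without laser injury of the retina. All 7 genes were found by their symbols among the 40743 genes of the expression table. RNA-seq values were compared between 3 libraries labelled Irf8 KO from unlasered mice and 4 libraries labelled Irf8 KO from mice taken a week after laser-induced choroidal neovascularisation (CNV). Both groups carried the genotype Irf8-/- Cx3cr1GFP/+ on a C57BL/6J background, in which GFP replaces a copy of Cx3cr1, and both were sorted as CD45low CD11b+ Cx3cr1GFP/+ Ly6C- Ly6G- cells. Each library was made from the pooled retinae of 3 to 4 mice and from 10000 cells on average, and lasered retinae were cut to their central 70% before sorting. The injury and the part of the retina therefore cannot be told apart. Wild-type libraries were not analysed here, so each value describes Irf8 KO rMG alone.

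MS4A proteins span the cell membrane several times and are found mainly on immune cells. The best known members are CD20, the B cell antigen encoded by Ms4a1, and the beta subunit of the high-affinity IgE receptor, encoded by Ms4a2. The genes of the Ms4a4, Ms4a6 and Ms4a7 groups are expressed by microglia and macrophages among other leukocytes, and human variants near their counterparts are associated with the risk of Alzheimer's disease and with soluble TREM2 in cerebrospinal fluid. Ms4a7 is in wide use as a marker that separates border-associated macrophages and microglia-like cells of bone marrow origin from resident microglia.

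All members lie in a single cluster on mouse chromosome 19 (GRCm38), between position 11321039 and position 11604849. Ms4a7 (ENSMUSG00000024672, chr19:11321039-11336146) and Ms4a6d (ENSMUSG00000024679, chr19:11586604-11604849) are on the minus strand. The other 5 are on the plus strand, in the order Ms4a4a (ENSMUSG00000101389, chr19:11375523-11392790), Ms4a4c (ENSMUSG00000024675, chr19:11404770-11427246), Ms4a4b (ENSMUSG00000056290, chr19:11443553-11467055), Ms4a6c (ENSMUSG00000079419, chr19:11469366-11482192) and Ms4a6b (ENSMUSG00000024677, chr19:11516512-11531256). All 7 are annotated as protein coding.

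Promoter sequences in RefSeq (GRCm38.p6) matched 6 of the 7 members, and Ms4a6d had no entry. The 250 bases before the start annotated in RefSeq are given for Ms4a7, the only member called below, and for the pairs Ms4a4b with Ms4a4c and Ms4a6b with Ms4a6c, whose members resemble each other. The RefSeq starts of Ms4a4c and Ms4a6b lie downstream of the GENCODE gene starts given above, so their windows fall inside those gene spans. Ms4a7 had 2 RefSeq entries, and the window of the more upstream start is printed. For Ms4a7 capitals mark the letters ACTTCC, the reverse strand form of GGAAGT, the core recognised by ETS factors such as PU.1. For the pairs capitals mark runs of at least 12 bases that occur in both windows of a pair.
Ms4a7 (chr19:11336147-11336396, minus strand): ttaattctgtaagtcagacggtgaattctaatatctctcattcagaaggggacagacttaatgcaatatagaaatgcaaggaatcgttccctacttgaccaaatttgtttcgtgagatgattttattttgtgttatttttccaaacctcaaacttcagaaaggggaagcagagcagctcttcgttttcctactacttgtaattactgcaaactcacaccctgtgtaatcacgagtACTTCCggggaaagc
Ms4a4b (chr19:11443308-11443557, plus strand): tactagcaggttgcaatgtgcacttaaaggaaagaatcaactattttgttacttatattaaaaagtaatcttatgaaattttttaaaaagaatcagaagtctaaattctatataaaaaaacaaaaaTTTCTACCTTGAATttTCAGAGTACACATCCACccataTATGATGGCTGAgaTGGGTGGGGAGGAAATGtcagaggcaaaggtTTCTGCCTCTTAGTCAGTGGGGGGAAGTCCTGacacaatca
Ms4a4c (chr19:11407411-11407660, plus strand): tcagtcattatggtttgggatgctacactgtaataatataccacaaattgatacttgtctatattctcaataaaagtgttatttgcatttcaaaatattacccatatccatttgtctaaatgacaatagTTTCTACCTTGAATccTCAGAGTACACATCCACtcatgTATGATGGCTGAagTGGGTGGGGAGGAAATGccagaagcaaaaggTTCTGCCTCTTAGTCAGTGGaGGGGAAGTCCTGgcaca
Ms4a6b (chr19:11518309-11518558, plus strand): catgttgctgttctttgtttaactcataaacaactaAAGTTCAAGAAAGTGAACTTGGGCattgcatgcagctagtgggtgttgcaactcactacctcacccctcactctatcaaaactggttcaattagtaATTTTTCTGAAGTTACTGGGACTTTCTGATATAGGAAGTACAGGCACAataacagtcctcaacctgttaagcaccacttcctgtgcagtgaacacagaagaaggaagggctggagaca
Ms4a6c (chr19:11469118-11469367, plus strand): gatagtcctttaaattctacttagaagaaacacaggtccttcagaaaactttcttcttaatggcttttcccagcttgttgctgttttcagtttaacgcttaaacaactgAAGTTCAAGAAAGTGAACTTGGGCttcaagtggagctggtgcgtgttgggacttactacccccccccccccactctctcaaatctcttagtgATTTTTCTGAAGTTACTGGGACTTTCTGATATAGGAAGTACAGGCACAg

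The windows of Ms4a4b and Ms4a4c shared 92 of 250 bases in such runs, and those of Ms4a6b and Ms4a6c shared 72, of which 48 formed an unbroken run. The GGAAGT core, searched on both strands after these letters had been seen, occurred in the windows of Ms4a4b, Ms4a4c, Ms4a6b, Ms4a6c and Ms4a7, 5 of 6 members, and in 19.7% of all 32851 promoter windows of that length. In the printed window of Ms4a7 it began 15 bases before the start, it was not found in the window of the other Ms4a7 entry (chr19:11334696-11334945), and in Ms4a6b it occurred on each strand. In both pairs the forward match lay within a shared run, so the matches of the 5 members are not independent of each other. The longer letters GAGGAAGT of PU.1, which contain that core, GGAA and GAAA spaced by 2 bases (a joint ETS and IRF site) and GAAA repeated after 2 bases (the core of an interferon-stimulated response element), again on both strands, occurred in none of the 6 members' windows, against 2.44%, 2.3% and 2.98% of all windows. A match is only a match of letters, and its absence in these windows says nothing about the factor.

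The similarity also extends into the transcripts. Of the distinct 50-base words in GENCODE M21 transcripts, 8.19% for Ms4a4c and 2.40% for Ms4a4b were found in another gene as well, and 135 of them were shared by these 2. Ms4a6b shared 3.57% of its words, Ms4a6d 2.54% and Ms4a7 0.306%, and Ms4a4a shared 0. Ms4a6c was the exception with 51.4%, since 993 of its 2001 words were also found, on either strand, in BE692007, a processed transcript on the opposite strand.

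Total reads were between 20427558 and 36022954 in the unlasered libraries and between 37133297 and 45919042 in the lasered ones. Values are given as CPM, the reads of a gene relative to all counted reads of its library, and the floor of 3 reads was at most 0.147 CPM, which covers counting error only. Irf8 itself, listed partly together with the overlapping gene Gm20388, was at 509 ± 20.6 CPM (mean ± SD, n = 3) in unlasered and 496 ± 57.6 CPM (n = 4) in lasered libraries. These values per gene do not resolve the deleted part of Irf8 and so do not check the genotype. Of 11 microglia markers, 10 were above 1 CPM in at least 3 libraries, and their summed level was between 26176 and 31196 CPM without laser and between 23727 and 31859 CPM with it. Sall1, a defining transcription factor of microglia, was between 0 and 1.36 CPM. The paper reports Sall1 as strongly lower in Irf8 KO rMG than in controls, so its low level is a reported trait of this genotype. Rod photoreceptor RNA differed most of all marker lists: the 10 rod genes summed to between 1719 and 16937 CPM in unlasered and between 280 and 895 CPM in lasered libraries, and 9 of the 10 were called lower after laser. Unlasered library 2 was the highest of them.

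All 7 members had at least 1 CPM in each library and were tested in a limma fit of log2(CPM + 1) over 17496 genes. Ms4a7 was lower after laser injury and was the only member called at an adjusted p under 0.05, and 0 members were called higher. Over all genes tested, 6.93% were called, 3.86% higher and 3.07% lower. At an unadjusted p under 0.05 the count was 4 higher (Ms4a4a, Ms4a4b, Ms4a6c and Ms4a6d) and 1 lower (Ms4a7), where 11.0% of all genes were higher and 11.6% lower (22.7% in all). With the study's thresholds, a log2 fold change beyond 1.5 and a group mean reaching 100 CPM, together with the adjusted p, 0 members and 0.269% of all genes passed. The members' median log2 fold change was 0.55, and that of all genes tested was -0.01. Because libraries are pools of mice, the p-values set the group difference against the spread between these pools. They do not cover the spread between single mice. The plot of CPM by library shows the levels, and the plot of log2 fold changes shows the differences.

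**Figure D1:**
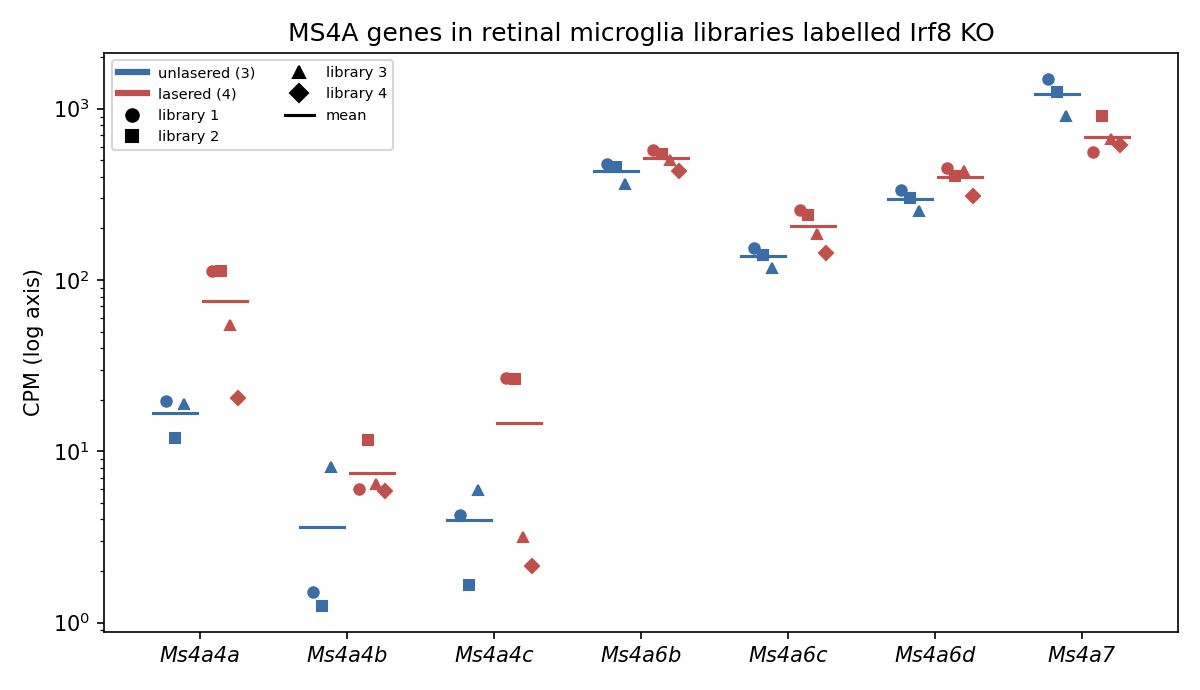
CPM on a log axis for the 7 MS4A genes, with unlasered libraries in blue (3) and lasered libraries in red (4), a marker shape for each library number and a bar for the group mean. The 3 unlasered Ms4a7 values sit between 906 and 1484 CPM, just above the highest lasered value of 902 CPM, whereas Ms4a4a and Ms4a4c are highest in lasered libraries 1 and 2.

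**Figure D2:**
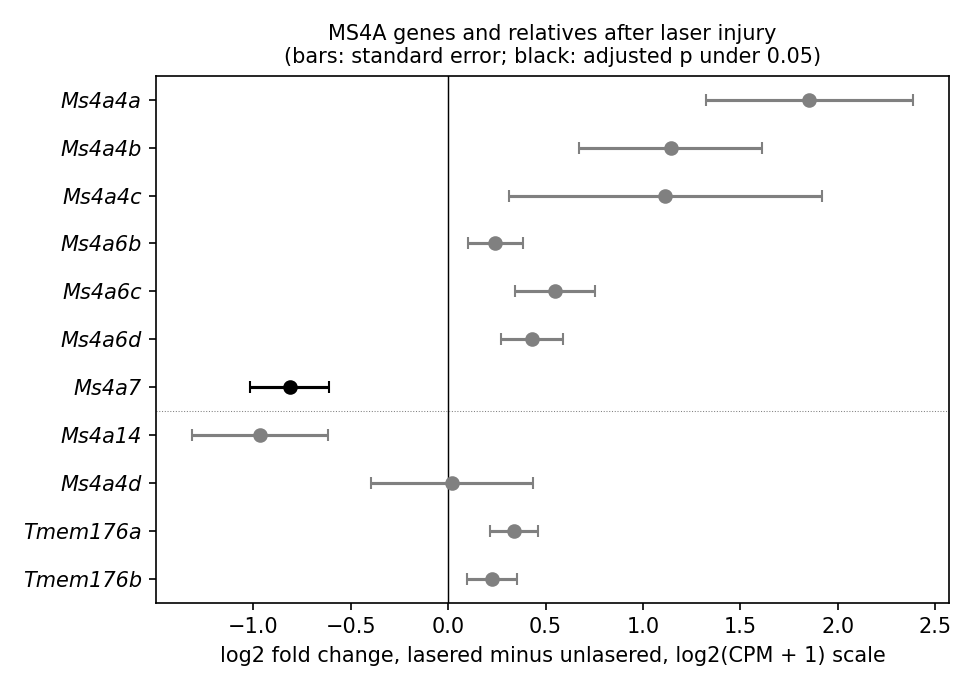
Log2 fold changes of lasered minus unlasered libraries on the log2(CPM + 1) scale, with standard errors from limma, for the 7 genes (above the dotted line) and 4 relatives (below it). Ms4a7, at -0.81, is the only gene drawn in black (adjusted p under 0.05), and the other 6 members lie between 0.24 and 1.85.

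Ms4a7 drew more reads than any other member in each unlasered library, with 1484, 1247 and 906 CPM in libraries 1, 2 and 3. In the lasered libraries it was at 562, 902, 665 and 616 CPM in libraries 1 to 4. The groups did not overlap, but unlasered library 3 and lasered library 2 lay side by side. The mean was 1212 ± 291 CPM (SD, n = 3) without and 686 ± 150 CPM (SD, n = 4) with laser injury. Ms4a7 fell by 0.81 on the log2(CPM + 1) scale (SE 0.20, adjusted p = 0.0470, limma), a 1.76-fold decrease. Values without overlap in that direction were found for 10.7% of all genes.

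The call for Ms4a7 was close to the threshold. It was lost when any single library other than unlasered library 3 was left out, with adjusted p-values between 0.0509 and 0.139, and without unlasered library 3 it held (adjusted p = 0.0272). It was also lost with median-of-ratios scaling (adjusted p = 0.0585), while its log2 fold change stayed between -1.01 and -0.65 in all 16 alternatives.

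Of the 8 border macrophage markers, 7 were tested and 1 was called, lower, while the median log2 fold change of the 7 was 0.10. The called gene was Pf4, the chemokine platelet factor 4, which was at 636, 550.0 and 407 CPM in unlasered and at 258, 240.1, 282 and 359 CPM in lasered libraries (log2 fold change -0.89, adjusted p = 0.0285). Mrc1, the mannose receptor CD206, was at 621 ± 139 CPM without and 413 ± 95.8 CPM with laser (log2 fold change -0.59, adjusted p = 0.131). The paper reports more Mrc1 RNA and CD206 staining in Irf8-deficient rMG than in controls. In this genotype Mrc1 is therefore not particular to border macrophages. None of the other 5 tested passed the threshold: Cbr2 was at 5.55 ± 2.94 and 11.9 ± 2.47 CPM (log2 fold change 1.06, adjusted p = 0.0799), Folr2, F13a1 and Stab1 had log2 fold changes of 0.34, 0.13 and 0.10, and Cd163 had -0.02. The whole list summed to between 1579 and 2197 CPM in unlasered and between 1112 and 1627 CPM in lasered libraries, and Lyve1, a defining marker of perivascular macrophages, was at or below 1.11 CPM in each library and at 0 in 4 of them. Neither the part of these cells nor that of rod RNA in the Ms4a7 values was tested. In bulk samples, fewer cells of a type and less RNA per cell cannot be told apart.

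Ms4a4a encodes a surface protein of macrophages that associates with the beta-glucan receptor dectin-1. It was at 19.5, 11.9 and 18.8 CPM in unlasered libraries 1, 2 and 3. In lasered libraries 1 to 4 it was at 113.0, 113.4, 54.5 and 20.4 CPM. All lasered values were above all unlasered ones, but lasered library 4 exceeded unlasered library 1 only slightly, and 2 of the 4 lasered libraries carried most of the difference. Means were 16.7 ± 4.21 and 75.3 ± 45.9 CPM (SD, n = 3 and n = 4), a ratio of 4.50 between them. With a log2 fold change of 1.85 (SE 0.53), the largest of the members, Ms4a4a did not pass the threshold (adjusted p = 0.0731, limma). It passed without lasered library 4 (log2 fold change 2.37, adjusted p = 0.0143), with median-of-ratios scaling and in count models on the recovered reads. Groups without overlap in this direction were found for 10.4% of all genes.

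Ms4a4c was low throughout, with 4.26, 1.66 and 5.97 CPM in the unlasered libraries, or 87, 57 and 215 reads. In the lasered libraries it was at 26.6, 26.5, 3.16 and 2.13 CPM. Lasered libraries 1 and 2 were above each unlasered library, whereas lasered libraries 3 and 4 lay within the unlasered range. The log2 fold change was 1.11 with an SE of 0.80 (adjusted p = 0.459), so the difference was not larger than the spread between the lasered libraries.

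The dendritic cell markers differed between the same lasered libraries. Their summed level was 191 and 200.4 CPM in lasered libraries 1 and 2 but 53.7 and 40.4 CPM in lasered libraries 3 and 4, and it was between 24.3 and 70.6 CPM in the unlasered libraries. Much of this sum came from Ccr7 and Itgax, with lasered means of 37.9 and 40.7 CPM beside 121 CPM for the list. Of the 7 dendritic cell genes 6 were tested and 0 were called by limma, with 2 higher at an unadjusted p under 0.05. Ccr7, Cd209a, Flt3 and Itgax had log2 fold changes of 3.35, 2.09, 1.56 and 0.995, but Zbtb46 had 0.11 and Xcr1 had -0.44. Clec9a, which defines cross-presenting dendritic cells, was at or below 0.245 CPM in each library. The part of dendritic cells in the values of Ms4a4a and Ms4a4c was not tested.

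Ms4a4b, first described in T cells, was at 1.52, 1.26 and 8.08 CPM in unlasered libraries 1, 2 and 3, or 31, 43 and 291 reads. In the lasered libraries it was at 6.03, 11.7, 6.45 and 5.84 CPM. Unlasered library 3 lay inside the lasered range and the other 2 unlasered libraries lay below it. The log2 fold change was 1.14 (SE 0.47, adjusted p = 0.187), and it was 1.78 (adjusted p = 0.0204) without unlasered library 3. T and NK cell markers were close to 0: the 10 genes summed to between 3.91 and 7.0 CPM in unlasered and between 2.53 and 9.93 CPM in lasered libraries, Cd3e did not exceed the floor in any library, and of the 2 genes tested 0 were called, with 1 at an unadjusted p under 0.05.

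The Ms4a6 genes were abundant in both groups. Ms4a6d, a macrophage member described as a partner of the complement receptor VSIG4, was at 335, 300.2 and 252 CPM in unlasered libraries. It was at 450.4, 407, 434 and 311 CPM in lasered libraries. Lasered libraries 1, 2 and 3 were above all unlasered libraries, and lasered library 4 was within their range (log2 fold change 0.43, SE 0.16, adjusted p = 0.148).

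Ms4a6b was at 475, 459 and 366 CPM in unlasered and at 572, 543, 503 and 430 CPM in lasered libraries. Only lasered library 4 fell within the unlasered range, yet the difference was the smallest of the members (log2 fold change 0.24, SE 0.14, adjusted p = 0.357).

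Ms4a6c was at 155, 141 and 118 CPM in unlasered and at 255, 239, 185 and 143 CPM in lasered libraries. Again only lasered library 4 overlapped with the unlasered group (log2 fold change 0.55, SE 0.21, adjusted p = 0.151). BE692007, the transcript on the opposite strand whose exons overlap those of Ms4a6c, was listed at similar levels: at 169, 160 and 138 CPM in unlasered and at 296, 275, 235 and 162 CPM in lasered libraries. The ratio of Ms4a6c to BE692007 stayed between 0.787 and 0.912 in the 7 libraries. Since the library kit is not described as keeping the strand of the RNA, reads of the 2 genes cannot be told apart, and the level of each is uncertain. The antisense genes Gm19261, opposite Ms4a6b, and Gm5692, opposite Ms4a4c, reached at most 0.343 and 0.0680 CPM.

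The members' summed level was 2474, 2162 and 1674 CPM in unlasered and 1984, 2244, 1851 and 1528 CPM in lasered libraries. The groups overlapped, with 2103 ± 403 and 1902 ± 298 CPM (SD, n = 3 and n = 4). Its make-up differed more than its sum, as the plot of shares shows. Ms4a7 took 60.0%, 57.7% and 54.1% of the summed CPM in unlasered libraries and 28.3%, 40.2%, 35.9% and 40.3% in lasered ones. The mean share of Ms4a6b was 20.8 ± 1.39% without and 27.1 ± 2.04% with laser, that of Ms4a6d 14.2 ± 0.803% and 21.2 ± 2.40%, that of Ms4a6c 6.59 ± 0.392% and 10.7 ± 1.51%, and that of Ms4a4a 0.820 ± 0.287% and 3.76 ± 2.0%. Shares of 1 sum depend on each other, and no test was made of them.

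**Figure D3:**
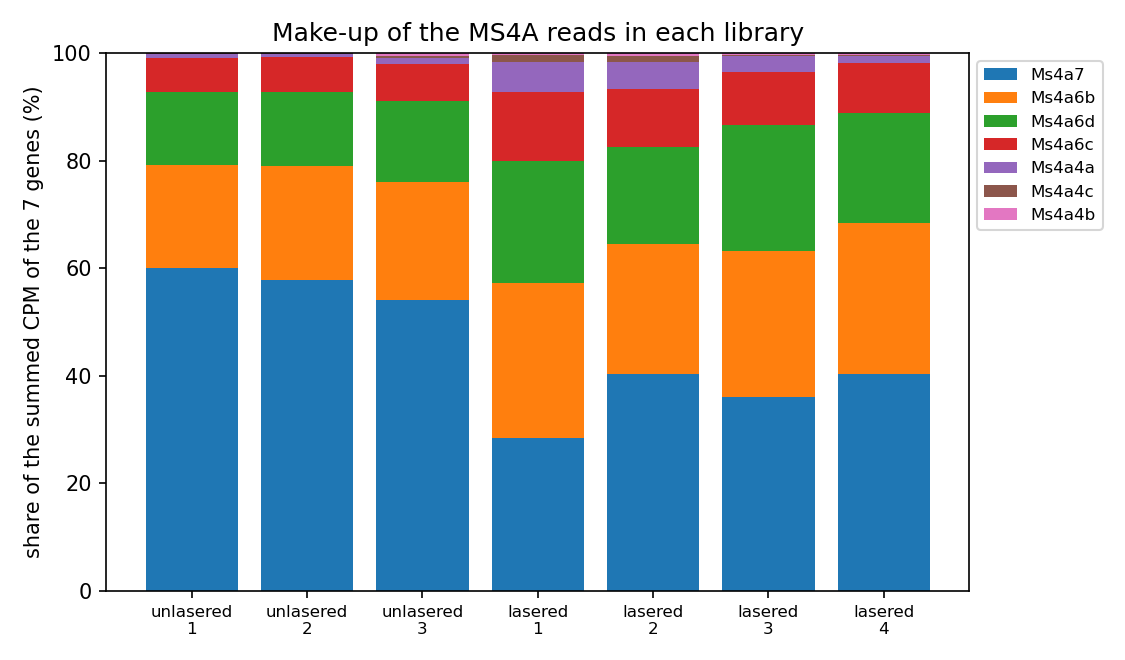
Share of each MS4A gene in the summed CPM of the 7 genes, in percent, as stacked bars for the 3 unlasered and 4 lasered libraries. Ms4a7 takes between 54.1% and 60.0% in unlasered and between 28.3% and 40.3% in lasered libraries.

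Ratios within a library do not depend on its total. The ratio of Ms4a6d to Ms4a7 was 0.226, 0.241 and 0.279 in unlasered libraries and 0.802, 0.451, 0.653 and 0.505 in lasered ones. The ratio of Ms4a6b to Ms4a7 was 0.320, 0.368 and 0.403 without and 1.02, 0.602, 0.757 and 0.698 with laser. Neither ratio overlapped between the groups. The ratio of Ms4a6d to Ms4a6b, which both lack a call, did not overlap either, with 0.706, 0.654 and 0.691 without and 0.787, 0.750, 0.862 and 0.723 with laser, but its means of 0.684 and 0.781 lay closer together. How often ratios of other genes overlap was not tested. These ratios show unequal change of the genes and do not tell which of them changed.

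To compare levels between genes, CPM were divided by the joined exon length in GENCODE M21. In unlasered libraries Ms4a7 was at 272 ± 65.2 CPM per kb (SD, n = 3), followed by Ms4a6d at 171 ± 23.9, Ms4a6b at 96.6 ± 13.2, Ms4a6c at 67.1 ± 9.13, Ms4a4a at 20.0 ± 5.04, Ms4a4c at 2.26 ± 1.24 and Ms4a4b at 0.412 ± 0.440 CPM per kb. This order was the same within each of the 3 unlasered libraries, and no neighbours in it overlapped. In lasered libraries Ms4a6d led in all 4, at 231 ± 36.0 CPM per kb (SD, n = 4). Ms4a7 followed at 154 ± 33.7 and then Ms4a6b at 114 ± 13.7, Ms4a6c at 100.2 ± 25.0 and Ms4a4a at 90.1 ± 54.9 CPM per kb, neighbours whose values overlapped. In lasered library 1 Ms4a4a ranked above Ms4a6b and Ms4a7, while in lasered libraries 3 and 4 it ranked below Ms4a6c. Ms4a4c and Ms4a4b remained the lowest at 8.35 ± 7.90 and 0.854 ± 0.319 CPM per kb. The exon lengths used, from 836 bases for Ms4a4a to 8780 bases for Ms4a4b, come from annotated transcripts that may not be those made in these cells. The place of Ms4a6c in these orders is also uncertain, since its reads cannot be told apart from those of BE692007.

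Of 13 other Ms4a genes looked for, 12 were listed and Ms4a20 was not, and 2 of the 12 were high enough to be tested. Ms4a14, the neighbour of Ms4a7 on the minus strand, was at 18.7, 17.1 and 18.3 CPM in unlasered and at 11.2, 12.3, 11.1 and 3.61 CPM in lasered libraries. Its groups did not overlap, as with Ms4a7, but it did not pass the threshold (log2 fold change -0.97, SE 0.35, adjusted p = 0.136). Ms4a4d was at 1.55 ± 1.65 and 1.36 ± 0.703 CPM (log2 fold change 0.02, SE 0.42, adjusted p = 0.986). The remaining 10, with Ms4a1 and Ms4a2 among them, were too low for the test, and Ms4a5 and Ms4a18 did not exceed the floor in any library. Ms4a1 was at most 1.32 CPM and Ms4a2 at most 0.194 CPM.

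Along the whole cluster, from Ms4a10 to Ms4a3, 34 genes were listed and 18 of them tested. Ms4a7 was the only one called, and 9 of the 18 log2 fold changes were above and 9 below 0, as the map of the cluster shows in part. The related genes Tmem176a and Tmem176b, on chromosome 6, encode proteins of similar build that are abundant in dendritic cells and macrophages. Tmem176a was at 722, 619 and 563 CPM in unlasered and at 727, 816, 876 and 777 CPM in lasered libraries, without overlap (log2 fold change 0.34, SE 0.12, adjusted p = 0.140). Tmem176b differed less (log2 fold change 0.22, SE 0.13, adjusted p = 0.337). Their exons overlap on opposite strands, which limits both values as for Ms4a6c.

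**Figure D4:**
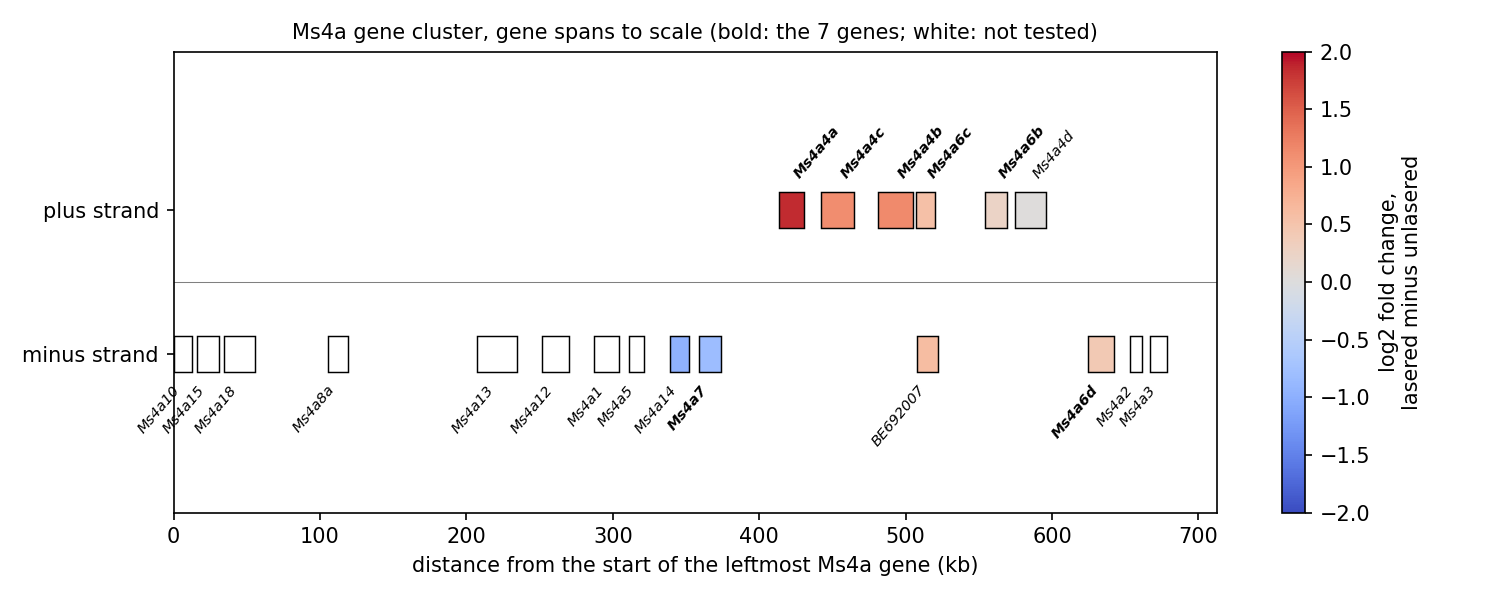
Map of the Ms4a cluster and BE692007 with gene spans to scale, in kb from the start of the leftmost gene, by strand. Colour gives the log2 fold change of lasered minus unlasered libraries, and white genes were not tested. Ms4a14 (-0.97) and Ms4a7 (-0.81) lie next to each other on the minus strand, and the 5 plus strand members range from 0.24 to 1.85.

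Proteins known to act with MS4A proteins or to resemble them as membrane organisers were looked at as a fixed list of 15 genes. Of these 13 were tested and 0 were called by limma, with 0 at an unadjusted p under 0.05. Trem2, the lipid receptor of microglia, was at 895 ± 165 CPM without laser and 965 ± 95.1 CPM with it (log2 fold change 0.12, SE 0.15, adjusted p = 0.686). Its adaptor Tyrobp was at 1288 ± 195 and 1482 ± 105 CPM (log2 fold change 0.21, SE 0.13, adjusted p = 0.366). Clec7a, which encodes dectin-1, was at 642 ± 53.5 and 717 ± 95.5 CPM (log2 fold change 0.15, SE 0.13, adjusted p = 0.553). Vsig4 was too low for the test, at 0.616 ± 0.256 and 0.803 ± 0.122 CPM. The list's median log2 fold change was 0.09.

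Genes induced by interferon were set beside the members because IRF8 is an interferon regulatory factor. Of 12 genes, all tested, 5 were called higher and 0 lower, against 3.86% of all genes higher, and their median log2 fold change was 0.84. Irf7, the regulator that amplifies type I interferon responses, rose from 76.8 ± 7.65 CPM (SD, n = 3) to 275 ± 62.2 CPM (SD, n = 4), with 70.9, 85.5 and 74.1 CPM in unlasered and 337, 316, 239 and 206 CPM in lasered libraries (log2 fold change 1.80, SE 0.18, adjusted p = 0.00265). The other 4 were Rsad2 (log2 fold change 1.17, adjusted p = 0.0279), Ifit1 (0.86, adjusted p = 0.0211), Ifit3 (0.83, adjusted p = 0.0336) and Ifi204 (0.79, adjusted p = 0.0276). Lasered library 4 was the lowest lasered library for each of these 5 genes, as it was for Ms4a4a, Ms4a4b, Ms4a4c, Ms4a6b, Ms4a6c and Ms4a6d. For Ms4a4b the gap was small, with 5.84 CPM against 6.03 CPM in lasered library 1. That library 4 also had the fewest reads of the lasered ones (37133297). The share of all genes that were lowest in it was not counted, and a link of the members to interferon was not tested.

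For each member the genes with the most similar pattern were sought among 10287 others (10288 for Ms4a4b) with a mean of at least 10 CPM, by the root mean square difference of log2(CPM + 1) values centred on their mean over the 7 libraries. All values come from the same libraries, and the measure is a description. For Ms4a7 the nearest were Cdh18 (0.135) and Hmces (0.142), for Ms4a4a Axl (0.346) and AC163623.3 (0.347), and for Ms4a4c Itgax (0.379), which was also in the dendritic cell list, and Ctsh (0.499). Axl, a receptor tyrosine kinase for apoptotic cells, was at 34.1, 41.4 and 55.0 CPM in unlasered and at 240.2, 260.4, 104 and 68.0 CPM in lasered libraries, the order of libraries that Ms4a4a had within the lasered group.

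Itgax, which encodes the integrin CD11c, was at 17.5, 5.96 and 29.8 CPM in unlasered and at 65.4, 68.3, 19.6 and 9.45 CPM in lasered libraries. As with Ms4a4c, lasered libraries 1 and 2 were highest, and the other 2 lasered libraries lay within the unlasered range. Ms4a6c was nearest to BE692007 (0.0615), with which it overlaps, and to Rps13-ps5 (0.0804). The nearest genes were Plxnc1 (0.305) and Rassf4 (0.315) for Ms4a4b, Cers5 (0.0507) and 2700060E02Rik (0.0564) for Ms4a6b, and Afg1l (0.0682) and Gm6644 (0.0740) for Ms4a6d. Part of the reads of Cdh18, Plxnc1 and Rassf4 were listed jointly with overlapping genes.

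**Figure D5:**
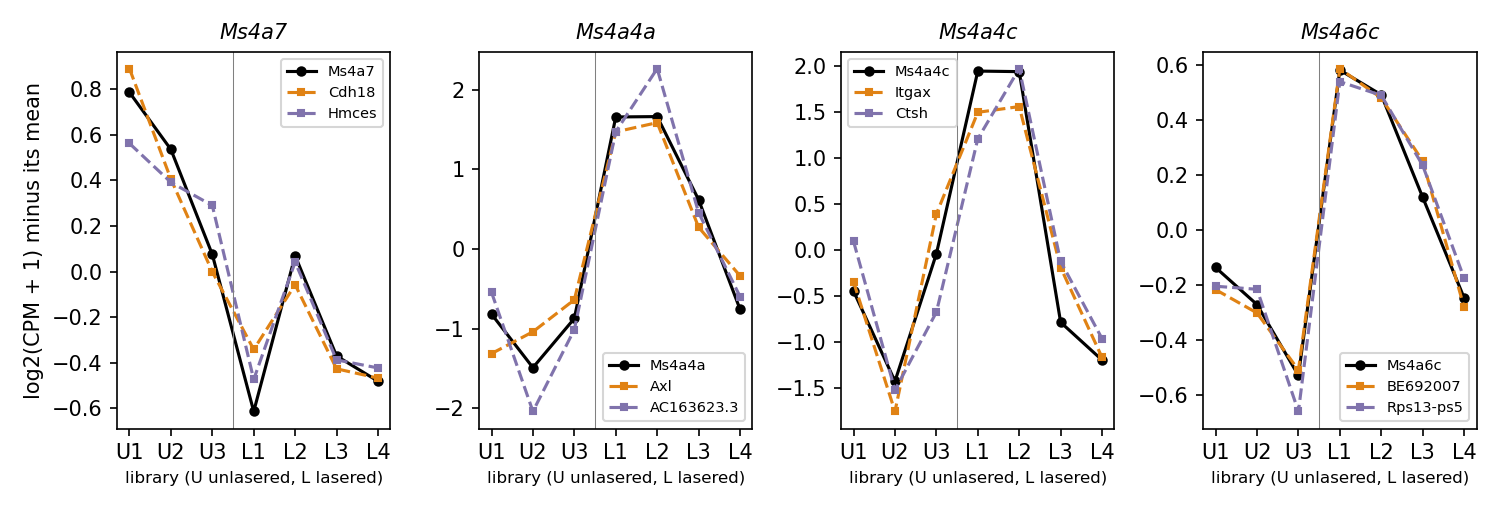
Log2(CPM + 1) minus its mean over the 7 libraries for Ms4a7, Ms4a4a, Ms4a4c and Ms4a6c (black) and the 2 most similar genes of each (dashed), in unlasered libraries U1 to U3 and lasered libraries L1 to L4. Lines only join the points of a gene. Ms4a4a with Axl and Ms4a4c with Itgax peak in L1 and L2, and Ms4a6c runs with BE692007 (difference 0.0615).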

How the data were processed

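rMG libraries were prepared with the SMARTer v4 and Nextera XT kits. Per the authors, cutadapt and FastUniq took out adapter and duplicate reads, bowtie2 mapped the rest to the mouse genome, and HTSeq counted per gene (Ensembl annotation version 90). The deposited values are headed TPM but are CPM: in each library 100% of values were whole multiples of 1 step (within 0.0001 CPM), which returned whole reads. 4492 genes, but 0 members, had reads listed jointly with another gene. Groups and replicate numbers come from the labels.

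limma 3.58.1 (R 4.3.3, mean-variance trend, robust empirical Bayes with statmod 1.5.0) was fitted to log2(CPM + 1) for genes with at least 1 CPM in 3 libraries. Tests were two-sided with Benjamini-Hochberg adjustment over all genes tested, and an adjusted p under 0.05 was a call. Fold changes on this scale understate the change of low genes. edgeR 4.0.16 and DESeq2 1.42.0 on recovered reads were alternatives. GENCODE M21 (99.7% of gene identifiers matched) gave positions and lengths.

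All 7 members were named, relatives and lists as stated, and the 2 nearest genes per member. Members and lists were chosen with earlier results of these data known.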

Additional observations from a re-analysis of the deposited data

Results flagged for a closer look

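Of 45 levels looked at over the 4 lasered libraries, 3 had a single library far from the others (a gap to the nearest above Dixon's critical share of the range), where chance gives about 1 in 20. Ms4a4b was highest in lasered library 2 with 11.7 CPM, against 5.84 to 6.45 CPM in the other lasered libraries. Ms4a14 was lowest in lasered library 4 with 3.61 CPM, against 11.1 to 12.3 CPM in the others. The summed B cell markers were highest in lasered library 4 with 23.6 CPM, of which 23.3 CPM came from Cd79b.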

How the results depend on the processing

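No alternative reversed the direction of a member, and Ms4a4c, Ms4a6b, Ms4a6c and Ms4a6d had no call in any of 16 alternatives each. The number of members called (1) became 0 with no filter on low values, with a mean of at least 10 reads and with the study's fold and mean thresholds, 2 with edgeR and 2 with DESeq2 on recovered reads (Ms4a4a and Ms4a7 in both), 5 at an unadjusted p under 0.05, and between 0 and 2 with a library left out. For Ms4a7 the log2 fold change was -0.81 without a filter (adjusted p = 0.105) and -0.81 with a mean of at least 10 reads (adjusted p = 0.0580), where more genes were tested, -0.73 with median-of-ratios scaling (adjusted p = 0.0585), and between -1.01 and -0.65 with a library left out. For Ms4a4a it was 1.93 with median-of-ratios scaling (adjusted p = 0.0467), 2.16 with edgeR (adjusted p = 0.0401), 2.16 with DESeq2 (adjusted p = 0.00638) and between 1.57 and 2.37 with a library left out. For Ms4a4b it was between 0.78 and 1.78 with a library left out (highest without unlasered library 3). Ms4a4c was at 1.87 with edgeR and with DESeq2 and between 0.62 (without lasered library 1) and 1.67 with a library left out, and Ms4a6b was between 0.12 (without unlasered library 3) and 0.32. The cause of these shifts was not tested. All genes called (1213) became 385 without a filter and 2318 with DESeq2, against 1283 with edgeR, and between 264 and 1248 with a library left out. Median-of-ratios scaling moved the median gene of a library by -0.07 to 0.08 on the log2 scale. The summed levels moved by less than 1 SD in each alternative.

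The labels share replicate numbers but do not say whether these pair the libraries, and the values gave no sign of pairing. Same-numbered libraries had correlations of -0.18, -0.13 and -0.02 in their deviations from the group means, and no library correlated best with its own number. With so few libraries, these correlations cannot settle whether same-numbered libraries were handled together. With the replicate number as a block, 0 members and 3 genes in all were called, and the log2 fold change of Ms4a7 was -0.77 (adjusted p = 0.168). Lasered library 4 has no same-numbered partner and adds nothing to this estimate, which equals the log2 fold change without that library (-0.77).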

Other observations

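Receptors of migrating leukocytes, singled out after their values were seen, were high in the same lasered libraries as Ms4a4a and Ms4a4c. Ccr7, which guides dendritic cells to lymph nodes, was at 4.16, 0.263 and 0.0278 CPM in unlasered and at 74.8, 68.5, 5.34 and 3.10 CPM in lasered libraries (adjusted p = 0.103, limma). Ccr2, the receptor of inflammatory monocytes, was at 5.63, 6.37 and 14.2 CPM in unlasered and at 81.5, 127.7, 19.7 and 7.57 CPM in lasered libraries (adjusted p = 0.186). Ly6c2, which marks the monocytes that the sort gate was set against, was too low for the test. It was at 0.392, 0.409 and 0.527 CPM in unlasered and at 0.884, 0.891, 0.0436 and 0.108 CPM in lasered libraries. Lasered libraries 1 and 2 were thus highest for Ly6c2 as well. The part of monocytes in these values was not tested. Of the 8 monocyte markers 6 were tested and 1, Fn1 (fibronectin), was called higher (log2 fold change 2.41, adjusted p = 0.0485). The paper reports more Fn1 RNA in Irf8-deficient rMG than in controls after laser injury. It also describes FN1 protein in microglia at the lesions. In this genotype Fn1 is therefore not particular to monocytes. Plac8, Chil3 and Itga4 had log2 fold changes of -0.88, -0.31 and -0.15. The list summed to between 145 and 565 CPM in unlasered and between 347 and 1025 CPM in lasered libraries, and Fn1 alone had a mean of 535 CPM in the lasered ones. Of 5 neutrophil markers 1 was tested and 0 were called, and Ly6g and Retnlg did not exceed the floor. Of 4 mast cell markers 1 was tested and 0 were called, and Mcpt4 and Tpsb2 did not exceed the floor. Of 5 B cell markers 2 were tested and 0 were called by limma, with 1 lower at an unadjusted p under 0.05. Of 10 tested microglia markers 0 were called by limma, with 3 lower at an unadjusted p under 0.05.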
